A study of Mus musculus with 30 samples.

Results

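The 10 genes described here encode surface and adhesion proteins by which satellite cells (SCs), the resident stem cells of skeletal muscle, are recognised, sorted or held in their niche. They are Vcam1 and Ncam1 (immunoglobulin-type adhesion molecules), Itga7 and Itgb1 (the subunits of the laminin receptor α7β1 integrin), Cdh15 (M-cadherin), Cd34 (a sialomucin), Chodl (the membrane lectin chondrolectin), Cxcr4 (a chemokine receptor), and Sdc3 and Sdc4 (syndecans). Members were taken by gene symbol from the annotation of the array platform, and each had 1 probe set assigned to that gene alone. They are 10 of 19938 genes measured in this way.

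SCs lie between the membrane of the muscle fiber and the basal lamina around it. α7β1 integrin binds laminin on the lamina side, M-cadherin binds M-cadherin across cell contacts, and syndecans carry heparan sulfate chains that present growth factors to their receptors. In uninjured muscle the cells are quiescent (QSCs), and after injury they become activated SCs (ASCs) that divide and either differentiate or return to quiescence. Most of these proteins are not restricted to SCs: CD34 also marks endothelial and fibro-adipogenic cells, CXCR4 leukocytes, VCAM1 activated endothelium, NCAM Schwann cells, and β1 integrin and syndecan-4 occur on most adherent cells.

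The data are 30 microarrays in 10 groups of 3, all of RNA from cells of mouse hindlimb muscle purified by flow cytometry. In C57BL6 wildtype mice, cells were collected as VCAM+ / CD31- / CD45- / Sca1- (VCAM cells), from uninjured muscle or at 36, 60 or 84 hr after injury with BaCl2. In mice of genotype Pax7CreER/+;ROSA26eYFP/+ injected with tamoxifen, in which the Pax7 locus drives the inducible Cre and recombined cells and their progeny express YFP, YFP+ cells (YFP cells) were collected at the same times. These 8 groups came from young mice of 2 to 3 months, and 2 further groups of VCAM cells, QSCs and 60 hr ASCs, came from old wildtype mice of 22 to 24 months. The sorts thus differ in genotype, tamoxifen and gate at once, so these cannot be told apart, and the old groups here are VCAM cells alone. Nothing in the labels tells separate animals from repeats of a preparation, so the p-values measure only the spread between the arrays of a group, which may be technical. Vcam1 encodes the protein that gated the VCAM cells, so its level is not read as a finding between the sorts. Its changes over time and with age in VCAM cells are likewise those of cells that passed this gate.

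All values are log2 intensities after robust multi-array averaging (RMA), so 1 unit is a doubling, and they compare groups for a gene, not genes with each other. A gene is called risen or fallen below when limma's Benjamini-Hochberg adjusted p over all genes is under 0.05 and the fold is at least 1.5. Correlations between arrays of a group lay between 0.996 and 0.9983, and no array stood apart. The myogenic identity gene Pax7 had a group mean of 11.68 in VCAM QSCs, 10.98 in YFP QSCs and 11.11 in old QSCs, with 8.95 to 10.03 in the 7 groups of ASCs. Of the genes excluded by the gate, Ptprc (CD45) had a mean of 6.24 in VCAM QSCs and 9.05 at 36 hr, Pecam1 (CD31) 9.57 and 9.59, and no probe set is assigned to Ly6a (Sca1) alone. Sorted cells are bulk samples here, so a lower value from fewer cells of a type and from less RNA per cell cannot be told apart.

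The stretches before the annotated starts of 4 of the genes are shown because these genes gave the widest or the most divided changes. RefSeq promoter sequences on GRCm38.p6 were found for 7 of the 10 genes, and the windows searched were the 250 bases before each start. Capitals mark matches on either strand to CANNTG (the E box core that basic helix-loop-helix factors bind), TGGGAA (a core read by RBPJ, the DNA-binding partner of Notch) and TATAAA (the TATA box). The Chodl stretch, chr16:78930698-78930840 on the plus strand, stops at the outermost start of the gene, 107 bases short of the start used for the window. The Cdh15 stretch is chr8:122848124-122848373 (plus strand), that of Cd34 chr1:194938571-194938820 (plus strand) and that of Cxcr4 chr1:128592300-128592549 (minus strand).
Chodl: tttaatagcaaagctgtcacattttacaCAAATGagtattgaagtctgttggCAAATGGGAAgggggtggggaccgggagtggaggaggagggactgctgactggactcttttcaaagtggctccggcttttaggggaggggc
Cdh15: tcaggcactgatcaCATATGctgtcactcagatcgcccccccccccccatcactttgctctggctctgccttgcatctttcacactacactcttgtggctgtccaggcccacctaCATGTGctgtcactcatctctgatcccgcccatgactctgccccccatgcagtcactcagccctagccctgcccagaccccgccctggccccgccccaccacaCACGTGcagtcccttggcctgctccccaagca
Cd34: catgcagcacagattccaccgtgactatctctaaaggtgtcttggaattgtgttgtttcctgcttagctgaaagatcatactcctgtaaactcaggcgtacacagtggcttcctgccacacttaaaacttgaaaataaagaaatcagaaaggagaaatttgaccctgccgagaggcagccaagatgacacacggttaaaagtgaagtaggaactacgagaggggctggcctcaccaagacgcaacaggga
Cxcr4: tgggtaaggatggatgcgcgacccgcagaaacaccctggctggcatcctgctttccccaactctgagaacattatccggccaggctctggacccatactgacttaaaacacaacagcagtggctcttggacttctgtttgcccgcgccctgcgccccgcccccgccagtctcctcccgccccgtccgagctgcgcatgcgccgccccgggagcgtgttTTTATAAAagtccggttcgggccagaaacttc

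The Chodl window held 4 matches to CANNTG, at 222, 198, 107 and 98 bases before the start, of which the first pair is in the printed stretch. As many or more were found in 3.84% of all 32851 promoters. A TGGGAA at 194 bases before the start overlaps the second CAAATG, and 21.6% of all promoters hold this motif. Cdh15 held 3 matches to CANNTG, at 236, 135 and 32 bases before the start, and 12.2% of promoters hold as many or more. No CANNTG was found in the other 5 windows, while 66.2% of all promoters hold at least 1. Cxcr4 held overlapping TATAAA matches at 32 and 30 bases before the start (12.4% of promoters hold at least 1). No motif searched was found in the Cd34, Sdc3, Sdc4 and Itgb1 windows. These are matches of letters and say nothing of binding.

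The first question was how the surface genes change as SCs leave quiescence. In both sorts of young cells Chodl, Cd34 and Sdc4 were lower by 60 hr and stayed lower at 84 hr, Chodl by the largest margin of the 10. Cxcr4 and Ncam1 were low at 60 hr and higher again at 84 hr, Cdh15 rose from 60 to 84 hr, Itga7 rose by 84 hr, Sdc3 was highest at 36 hr, and Itgb1 was not called at any time. In VCAM cells 1 of the 10 genes rose and 4 fell at 36 hr, where 13.2% of all genes rose and 9.72% fell. At 60 hr none rose and 5 fell (16.6% and 12.6% of all genes), and at 84 hr 1 rose and 5 fell (16.4% and 11.2%). In YFP cells 2 rose and 2 fell at 36 hr (10.1% and 6.14% of all genes), 1 rose and 5 fell at 60 hr (17.2% and 12.8%), and 2 rose and 3 fell at 84 hr (17.0% and 11.2%). The median log2 change of the 10 genes was -0.42, -0.73 and -0.44 at 36, 60 and 84 hr in VCAM cells and -0.24, -0.61 and -0.16 in YFP cells, with medians over all genes from -0.08 to -0.01.

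**Figure D1:**
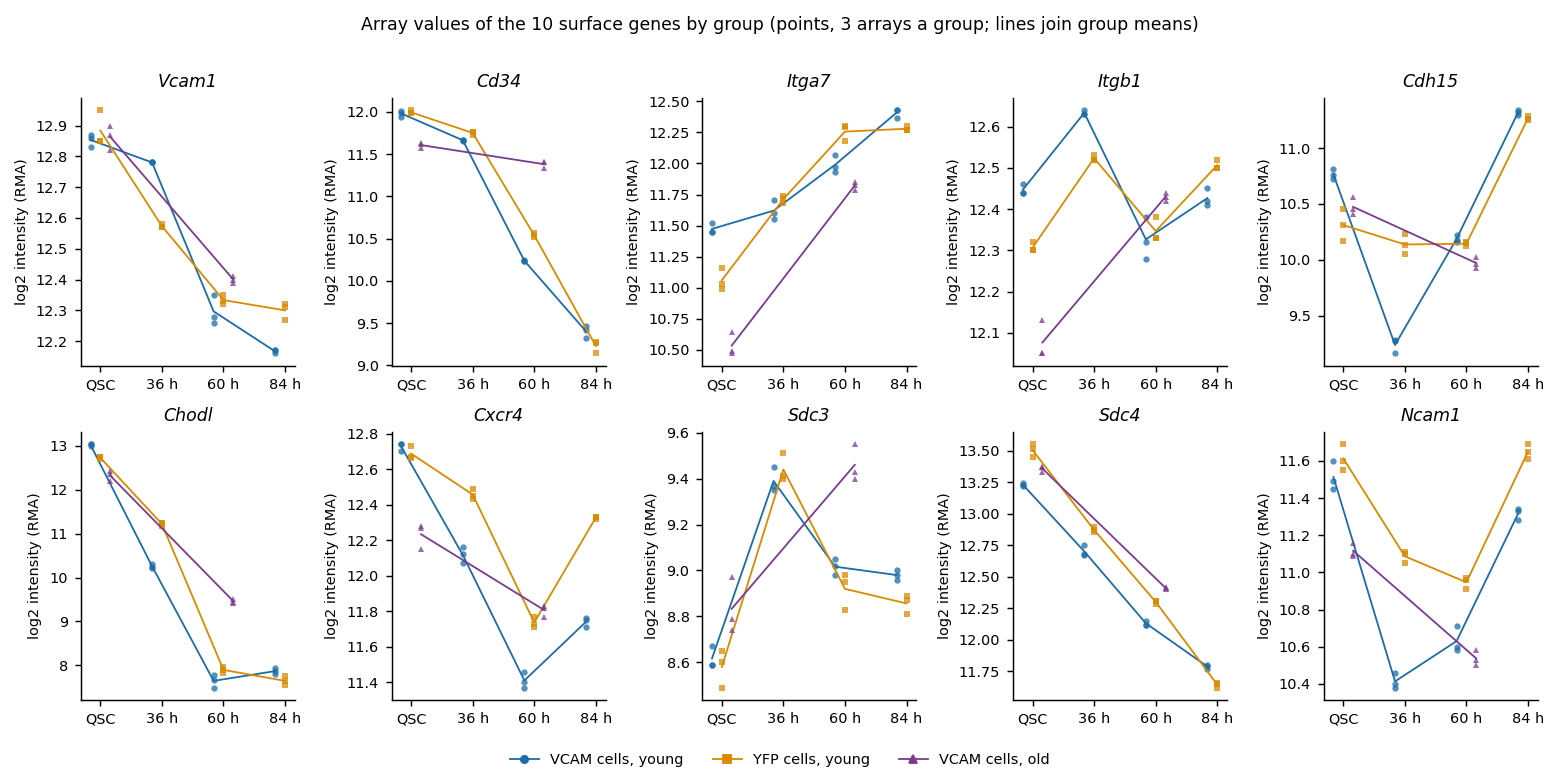
Log2 intensity (vertical axis, a separate scale in each panel) of the 10 genes on all 30 arrays, by time (QSC, 36, 60 and 84 hr after injury), with points for arrays and lines joining group means. Blue circles are VCAM cells and orange squares YFP cells of young mice, and purple triangles are VCAM cells of old mice, measured as QSCs and at 60 hr. Chodl spans from 13.04 down to 7.49 and Itgb1 from 12.05 to 12.64, so panel heights do not compare genes.

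Chodl, whose protein is a C-type lectin of the cell membrane, fell further than any other of the 10 genes. Its values on the 3 arrays were 13.04, 13.04 and 12.99 in VCAM QSCs, 10.22, 10.25 and 10.30 at 36 hr, 7.49, 7.67 and 7.77 at 60 hr, and 7.86, 7.93 and 7.81 at 84 hr. In YFP cells they were 12.70, 12.75 and 12.74, then 11.25, 11.17 and 11.24, then 7.97, 7.82 and 7.89, and at 84 hr 7.75, 7.63 and 7.55. QSCs, 36 hr and 60 hr do not overlap in either sort. The fall from quiescence was 6.81-fold at 36 hr and 41.7-fold at 60 hr in VCAM cells (log2 change -5.38, SE 0.07, limma adjusted p = 3.9e-28), and 2.84-fold and 28.5-fold in YFP cells (-4.84 at 60 hr, SE 0.07, adjusted p = 2.2e-27). From 60 to 84 hr Chodl was not called in either sort, with log2 differences of 0.22 (95% interval 0.09 to 0.36) in VCAM cells and -0.25 (-0.38 to -0.11) in YFP cells.

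Cd34, a sialomucin of stem and endothelial cells, moved later. Its values were 11.94, 11.99 and 12.01 in VCAM QSCs, 11.67, 11.65 and 11.67 at 36 hr, 10.23, 10.23 and 10.25 at 60 hr, and 9.32, 9.42 and 9.47 at 84 hr. YFP cells gave 11.98, 11.98 and 12.02 in QSCs, 11.73, 11.76 and 11.76 at 36 hr, 10.56, 10.54 and 10.52 at 60 hr, and 9.27, 9.14 and 9.28 at 84 hr. Each step was downward in both sorts, with no overlap between times. The change by 36 hr, -0.32 and -0.24, passed the adjusted p but not the fold, whereas by 84 hr Cd34 was 5.97-fold lower in VCAM cells (log2 change -2.58, SE 0.04, adjusted p = 1.5e-25) and 6.79-fold lower in YFP cells (-2.76, SE 0.04, adjusted p = 3.1e-26). It was called lower in each of the steps from 36 to 60 hr and from 60 to 84 hr. The relatives of Cd34 and Chodl followed were the sialomucins Podxl, Podxl2 and Cd164 and the lectin Layn (layilin). Of these 4 only Layn was called at 36 hr in VCAM cells. It rose by 2.89 on the log2 scale, and by 1.42 in YFP cells, where Podxl also rose, by 0.83. Later in YFP cells Podxl2 was called lower at 60 and 84 hr (-0.68 and -0.67) and Podxl at 84 hr (-0.79). At these times Cd164 was not called and Layn was higher (1.22 and 1.29).

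Endothelial markers were also lower at 60 hr than in QSCs. Of 12 endothelial genes 11 fell and none rose at 60 hr in each sort, Tek, Emcn, Cdh5 and Kdr by -3.73, -2.61, -2.57 and -2.47 in VCAM cells. The list's mean over an array lay between 8.84 and 8.91 in VCAM QSCs and between 7.06 and 7.09 at 60 hr, and in YFP cells all QSC arrays were at 8.82 or above and those at 60 hr between 7.49 and 7.58. At 84 hr the endothelial mean was 7.40 to 7.43 in VCAM cells, above its 60 hr level, and 7.54 to 7.62 in YFP cells, while Cd34 fell over that step in both sorts. Of 7 pericyte and smooth muscle genes 7 fell in VCAM cells and 5 in YFP cells at 60 hr, their mean going from 10.41 to 10.51 in VCAM QSCs to 8.02 to 8.07. At 36 hr in YFP cells 10 of the 12 endothelial genes rose and 1, Tek, fell (-0.68), while Cd34 was not called. The part of these cells in the Cd34 and Chodl values was not tested.

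Sdc4, the broadly expressed syndecan that gathers with integrins at focal adhesions, fell in steps. VCAM cells read 13.23, 13.22 and 13.24 as QSCs, 12.67, 12.68 and 12.75 at 36 hr, 12.12, 12.12 and 12.15 at 60 hr, and 11.77, 11.79 and 11.80 at 84 hr. YFP cells read 13.45, 13.51 and 13.55, then 12.85, 12.89 and 12.87, then 12.28, 12.31 and 12.31, and at 84 hr 11.66, 11.62 and 11.65. No neighbouring groups among all 10 overlap for this gene, and it is the only gene of the 10 with that property. The change to 36 hr was called in YFP cells (-0.63, or -0.52 and not called after quantile normalization) and was -0.53 in VCAM cells. By 84 hr Sdc4 was 2.72-fold lower in VCAM cells (log2 change -1.44, SE 0.04, adjusted p = 4.7e-22) and 3.63-fold lower in YFP cells (-1.86, SE 0.04, adjusted p = 2.1e-24).

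Sdc3, the other syndecan, went the opposite way at 36 hr. It had 8.59, 8.67 and 8.59 in VCAM QSCs and 9.35, 9.45 and 9.37 at 36 hr, and 8.49, 8.65 and 8.60 and 9.40, 9.41 and 9.51 in YFP cells. The rise was 1.70-fold (log2 change 0.77, SE 0.06, adjusted p = 1.1e-11) and 1.81-fold (0.86, SE 0.06, adjusted p = 1.9e-12). At 60 and 84 hr it read between 8.81 and 9.05 in all 12 young arrays, above all 6 QSC arrays, and its differences from QSCs of 0.27 to 0.40 were not called. Of 22 other genes for heparan sulfate proteoglycans and the enzymes that build or trim their chains, 4 rose and 4 fell at 36 hr in VCAM cells and 4 rose and 1 fell in YFP cells. Sdc1 rose at each time in both sorts, by 0.87 to 1.13, and Sulf1, a sulfatase that trims heparan sulfate, fell at each time, by -0.75 to -2.52. Sulf2, the other such sulfatase, went the opposite way, by 2.04, 0.46 (not called) and 1.32 at 36, 60 and 84 hr in VCAM cells and by 1.21, 1.05 and 1.23 in YFP cells. Gpc1 rose at 60 hr by 1.10 in VCAM cells and 1.40 in YFP cells.

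Itga7, the laminin-binding α subunit, rose as the cells progressed. VCAM cells gave 11.45, 11.45 and 11.52 as QSCs, 11.55, 11.60 and 11.71 at 36 hr, 11.93, 11.97 and 12.07 at 60 hr, and 12.43, 12.37 and 12.43 at 84 hr. YFP cells gave 10.99, 11.03 and 11.16, then 11.68, 11.74 and 11.72, then 12.29, 12.18 and 12.30, and at 84 hr 12.27, 12.27 and 12.30. Each later time lay above QSCs in both sorts, and within YFP cells 60 and 84 hr overlap. The rise to 84 hr was 1.91-fold in VCAM cells (log2 change 0.93, SE 0.06, adjusted p = 2.9e-14) and 2.33-fold in YFP cells (1.22, SE 0.06, adjusted p = 9.6e-17). In YFP cells it was already called at 36 hr (0.65, or 0.57 and not called with each array centred on its median), whereas in VCAM cells 0.15 at 36 hr and 0.52 at 60 hr did not reach the fold (0.60 and called at 60 hr with arrays centred).

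Itgb1, the β subunit shared by many integrins, was not called in any of the 21 comparisons made. Its means ran from 12.08 ± 0.05 (SD, n = 3) in old QSCs to 12.63 ± 0.003 in VCAM cells at 36 hr, and its changes from QSCs in young cells lay between -0.12 (95% interval -0.19 to -0.04) and 0.22 (0.14 to 0.29). Other integrin genes moved more. Of 16 subunit genes not in the leukocyte list, 10 rose and 1 fell at 36 hr in VCAM cells (list median 0.89, all genes -0.01). In YFP cells 7 rose and 1 fell (0.54, all genes -0.06). In VCAM cells the largest changes were Itga5, a fibronectin receptor subunit, with 1.82, Itga8 with -1.61, Itga2, a collagen receptor subunit, with 1.59, and Itga4, a receptor subunit for VCAM1, with 1.49. On the same arrays 5 of 7 fibroblast genes rose and 1 fell in each sort, and 3 of 4 tenocyte genes rose in VCAM cells and 4 in YFP cells. From QSCs to 36 hr the fibroblast array means went from 10.97 to 11.07 up to 12.45 to 12.48 in VCAM cells and from 10.29 to 10.37 up to 11.47 to 11.50 in YFP cells. The tenocyte group means went from 8.94 to 11.14 and from 8.20 to 9.80, and the part of these cells in the integrin values was not tested. By 84 hr 3 rose and 2 fell in VCAM cells and 3 rose and 3 fell in YFP cells, with Itgb6 at 3.65 and 3.90 and Itga8 at -2.80 and -2.50.

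On the ligand side of α7β1, laminin chain genes mostly fell. Of 9 measured chains 2 rose and 5 fell at 60 hr in VCAM cells (list median -1.46) and 2 rose and 6 fell in YFP cells (-0.74). Lama2, the α chain of the main laminin of the muscle basal lamina, was at -2.20 and -2.00, and Lama3 at -3.34 and -3.63, while Lamb1 was at 0.94 and 1.18. Inside the cell, 18 genes of the link from integrins to actin were split at 60 hr, with 4 up and 5 down in VCAM cells and 7 up and 4 down in YFP cells. Parvb, a partner of the integrin-linked kinase complex, was at 2.57 and 2.36, and Tln2, a talin, at -2.13 and -2.03. Of the 7 leukocyte integrin subunits, Itgam and Itgb2 rose at every time in both sorts, at 36 hr by 3.64 and 2.93 in VCAM cells. With them 15 of 16 macrophage genes rose at 36 hr in each sort, the list's array means going from 6.38 to 6.49 in VCAM QSCs to 9.46 to 9.59 and from 6.41 to 6.50 in YFP QSCs to 9.06 to 9.07. The part of macrophage RNA in the 36 hr values of the 10 genes and of the integrin lists, Itga4 included, was not tested.

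**Figure D2:**
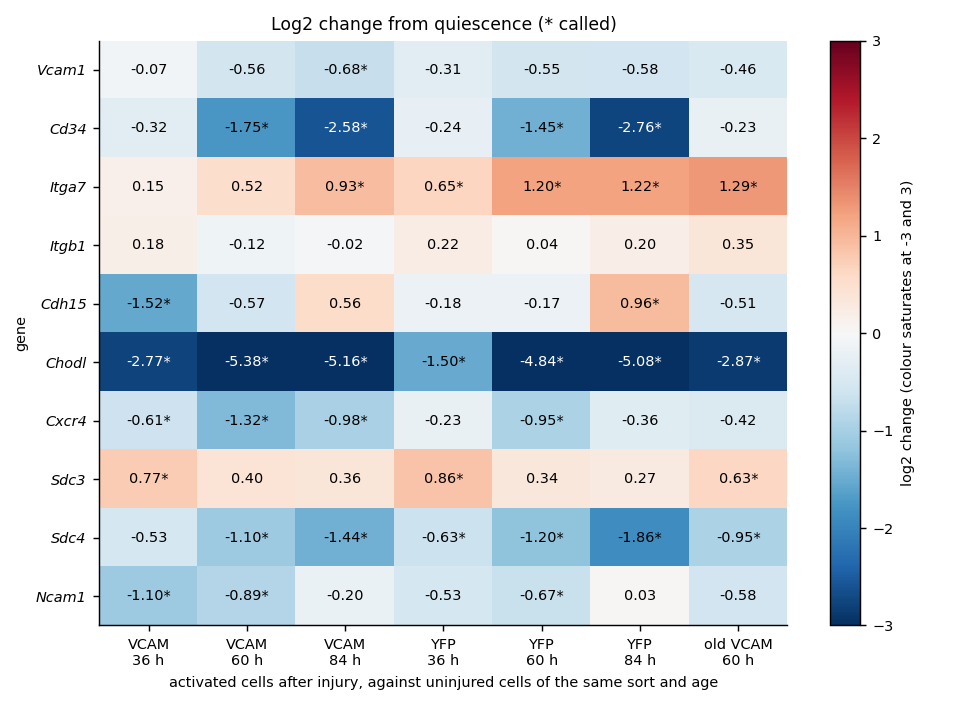
Log2 change of each gene from QSCs of the same sort and age (columns: VCAM cells at 36, 60 and 84 hr, YFP cells at 36, 60 and 84 hr, old VCAM cells at 60 hr), with blue for lower, red for higher and an asterisk where the gene was called. Chodl has an asterisk in all 7 columns, from -1.50 to -5.38, and Itgb1 in none.

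Cdh15, which encodes M-cadherin, had a low point at 36 hr in VCAM cells. Its values were 10.72, 10.76 and 10.81 in VCAM QSCs, 9.28, 9.27 and 9.16 at 36 hr, 10.22, 10.16 and 10.18 at 60 hr, and 11.30, 11.32 and 11.34 at 84 hr. YFP cells read 10.17, 10.31 and 10.45 as QSCs, 10.23, 10.05 and 10.13 at 36 hr, 10.15, 10.16 and 10.12 at 60 hr, and 11.25, 11.26 and 11.29 at 84 hr. In YFP cells QSCs and 36 hr overlap, as do 36 and 60 hr, and all 6 arrays at 84 hr lie above all earlier young arrays. In VCAM cells Cdh15 fell 2.88-fold by 36 hr (log2 change -1.52, SE 0.06, adjusted p = 4.1e-18), then rose 1.93-fold to 60 hr and 2.19-fold to 84 hr. In YFP cells it was not called at 36 hr (-0.18, 95% interval -0.30 to -0.06) or 60 hr (-0.17, -0.29 to -0.05), and rose 2.18-fold from 60 to 84 hr (1.12, SE 0.06, adjusted p = 2.3e-14). Of 12 other cadherin and catenin genes 2 rose and 4 fell at 60 hr in VCAM cells and 1 rose and 5 fell in YFP cells. Cdh2 (N-cadherin) rose by 3.28 and 3.30, Jup (plakoglobin) was at -2.43 and -2.04, Cdh13 at -1.91 and -1.92, and Cdh5, the endothelial cadherin, at -2.57 and -1.68.

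Ncam1 and Vcam1, both immunoglobulin-type adhesion molecules, parted. Ncam1 read 11.45, 11.49 and 11.60 in VCAM QSCs, 10.38, 10.46 and 10.40 at 36 hr, 10.58, 10.60 and 10.71 at 60 hr, and 11.28, 11.33 and 11.34 at 84 hr. In YFP cells it read 11.55, 11.60 and 11.69, then 11.05, 11.11 and 11.10, then 10.96, 10.91 and 10.97, and at 84 hr 11.61, 11.65 and 11.69. Both sorts thus have QSCs and 84 hr high and the middle times low, with QSCs and 84 hr overlapping in YFP cells. It fell 2.14-fold by 36 hr in VCAM cells (log2 change -1.10, SE 0.05, adjusted p = 7.8e-17) and 1.59-fold by 60 hr in YFP cells (-0.67, SE 0.05, adjusted p = 2.0e-12), and rose from 60 to 84 hr 1.61-fold and 1.62-fold. Of 3 Schwann cell genes 2 fell at 36 and 60 hr in VCAM cells, and 0 and 2 in YFP cells, and their part in the Ncam1 values was not tested. At 84 hr Ncam1 differed from QSCs by -0.20 in VCAM cells (95% interval -0.30 to -0.10) and by 0.03 in YFP cells (-0.07 to 0.13).

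Vcam1 lay between 12.16 and 12.95 on all 30 arrays and drifted down. Its group means were 12.85 ± 0.02 (SD, n = 3), 12.78 ± 0.004, 12.29 ± 0.05 and 12.17 ± 0.01 in VCAM cells from quiescence to 84 hr, and 12.88 ± 0.06, 12.57 ± 0.01, 12.33 ± 0.02 and 12.30 ± 0.03 in YFP cells, where VCAM did not gate the cells. All arrays at 60 and 84 hr lay below all those of QSCs and 36 hr. The change to 84 hr was called in VCAM cells (-0.68, SE 0.04, adjusted p = 1.0e-14), and in YFP cells it lay just under the fold threshold (-0.58, SE 0.04, adjusted p = 3.2e-13). Among 19 other immunoglobulin adhesion genes and polysialyltransferases, 4 rose and none fell at 36 hr in VCAM cells and 7 rose and none fell in YFP cells. At 60 hr 3 rose and 5 fell and 4 rose and 5 fell. Nrcam rose most, by 3.86 and 4.12 at 60 hr, and St8sia2, an enzyme that adds polysialic acid to NCAM, rose by 2.23 and 1.87, while Icam1 was at -1.90 and -2.03.

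Cxcr4, the receptor for the chemokine CXCL12, was lowest at 60 hr in both sorts. VCAM cells gave 12.74, 12.74 and 12.70 as QSCs, 12.12, 12.07 and 12.16 at 36 hr, 11.40, 11.37 and 11.46 at 60 hr, and 11.76, 11.75 and 11.71 at 84 hr. YFP cells gave 12.67, 12.66 and 12.73, then 12.45, 12.49 and 12.43, then 11.71, 11.73 and 11.77, and at 84 hr 12.33, 12.32 and 12.33. The 4 times do not overlap within either sort. Cxcr4 was 2.49-fold lower at 60 hr in VCAM cells (log2 change -1.32, SE 0.04, adjusted p = 3.6e-20) and 1.93-fold lower in YFP cells (-0.95, SE 0.04, adjusted p = 4.1e-17). Its step up to 84 hr was called in YFP cells (0.59, SE 0.04, adjusted p = 9.7e-12, but 0.53 and not called with arrays centred, and 0.57 without 60 hr array 1) and was 0.33 in VCAM cells. Of 7 genes around the receptor, Mif, an alternative ligand, rose at each time in both sorts, by 0.98 to 1.69, and Ackr3, the other CXCL12 receptor, fell at each time, by -0.97 to -1.68. Cxcl12 itself was at -0.12, -1.51 and -1.54 in VCAM cells at 36, 60 and 84 hr, called at 60 and 84 hr, and at 1.01, -0.58 and -0.60 in YFP cells, called at 36 and 84 hr.

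From 36 to 60 hr 1 of the 10 genes (Cdh15) rose and 3 (Cd34, Chodl and Cxcr4) fell in VCAM cells, where 6.26% and 8.49% of all genes did, and the same 3 fell and none rose in YFP cells (8.73% and 8.58%). From 60 to 84 hr 2 rose (Cdh15 and Ncam1) and 1 fell (Cd34) in VCAM cells (3.22% and 0.732% of all genes). In YFP cells 3 rose (Cdh15, Ncam1 and Cxcr4) and 2 fell (Cd34 and Sdc4) over that step (4.66% and 2.19%). Other surface proteins of SCs were followed through 13 genes. Of these 1 rose and 8 fell at 60 hr in VCAM cells (list median -0.92) and 2 rose and 8 fell in YFP cells (-0.71), Calcr, the calcitonin receptor, by -5.13 and -4.52 and Notch3 by -2.75 and -2.15. Met, the receptor for hepatocyte growth factor, rose by 1.47 and 0.99.

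A second question was whether cells purified by surface proteins and by the Pax7 lineage give the same levels. As QSCs none of the 10 genes was called between the sorts (1.74% of all genes were higher and 1.82% lower in VCAM cells), with differences from -0.28 (Sdc4) to 0.45 (Cdh15). At 36 hr none was higher and 3 were lower in VCAM cells (2.78% and 2.49% of all genes), namely Cdh15, Chodl and Ncam1. At 60 hr none was called (0.557% and 0.757%). At 84 hr none was higher and Cxcr4 was lower in VCAM cells (0.446% and 1.21%), with 11.76, 11.75 and 11.71 against 12.33, 12.32 and 12.33 and no overlap. That difference of -0.59 (SE 0.04, adjusted p = 1.0e-10) sits at the fold threshold and was not called with arrays centred (-0.58) or without VCAM array 3, YFP array 1 or YFP array 3 at 84 hr (-0.57 to -0.58).

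At 36 hr the arrays do not overlap between sorts for these 3 genes. Cdh15 was 1.86-fold lower in VCAM cells (log2 difference -0.90, SE 0.06, adjusted p = 2.7e-12), Chodl 1.95-fold (-0.97, SE 0.07, adjusted p = 6.1e-12) and Ncam1 1.59-fold (-0.67, SE 0.05, adjusted p = 1.9e-11). The same arrays differed in identity and contaminant markers. Of 6 myogenic identity genes 4 were lower in VCAM cells, Msc, Myog, Pax7 and Myf5, by -1.08, -1.08, -1.07 and -0.90, and the list's array means lay between 8.93 and 9.03 against 9.75 and 9.78 in YFP cells. Of 12 endothelial genes 12 were lower in VCAM cells (8.60 to 8.66 against 9.75 to 9.78), 5 of 7 fibroblast genes higher (12.45 to 12.48 against 11.47 to 11.50), 3 of 4 tenocyte genes higher (11.13 to 11.16 against 9.80 to 9.81) and 6 of 16 macrophage genes higher (9.46 to 9.59 against 9.06 to 9.07). Their part in the differences of Cdh15, Chodl and Ncam1 was not tested.

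The responses themselves were compared as the change from QSCs in VCAM cells minus that in YFP cells. At 36 hr the responses of Cdh15 and Chodl differed, by -1.35 (SE 0.08, adjusted p = 1.5e-12) and -1.26 (SE 0.09, adjusted p = 4.5e-11), where 4.61% of all genes differed in that direction and 4.47% in the other. The difference for Ncam1, -0.57 (95% interval -0.71 to -0.43), lay just under the fold. At 60 hr Itga7 differed, by -0.68 (SE 0.08, adjusted p = 2.6e-07, 2.78% of all genes lower and 2.21% higher), its QSC level being 0.41 higher and its 60 hr level 0.27 lower in VCAM cells. In QSCs 5 of 7 pericyte genes were higher in VCAM cells (array means of 10.41 to 10.51 against 9.26 to 9.30), as were 2 of 7 fibroblast genes (10.97 to 11.07 against 10.29 to 10.37), with none lower, and their part in the Itga7 difference was not tested. At 84 hr Cxcr4 differed, by -0.62 (SE 0.06, adjusted p = 8.0e-09, 3.84% lower and 2.71% higher), or -0.56 and not called with arrays centred. At 84 hr 11 of 16 macrophage genes were lower in VCAM cells, with array means of 8.51 to 8.54 against 9.22 to 9.26, and their part in the Cxcr4 difference was not tested. For Cd34 at 36 hr (-0.08, 95% interval -0.21 to 0.05) and Sdc3 at all times the interval of the difference includes 0. All these intervals lie between -0.26 and 0.26.

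**Figure D3:**
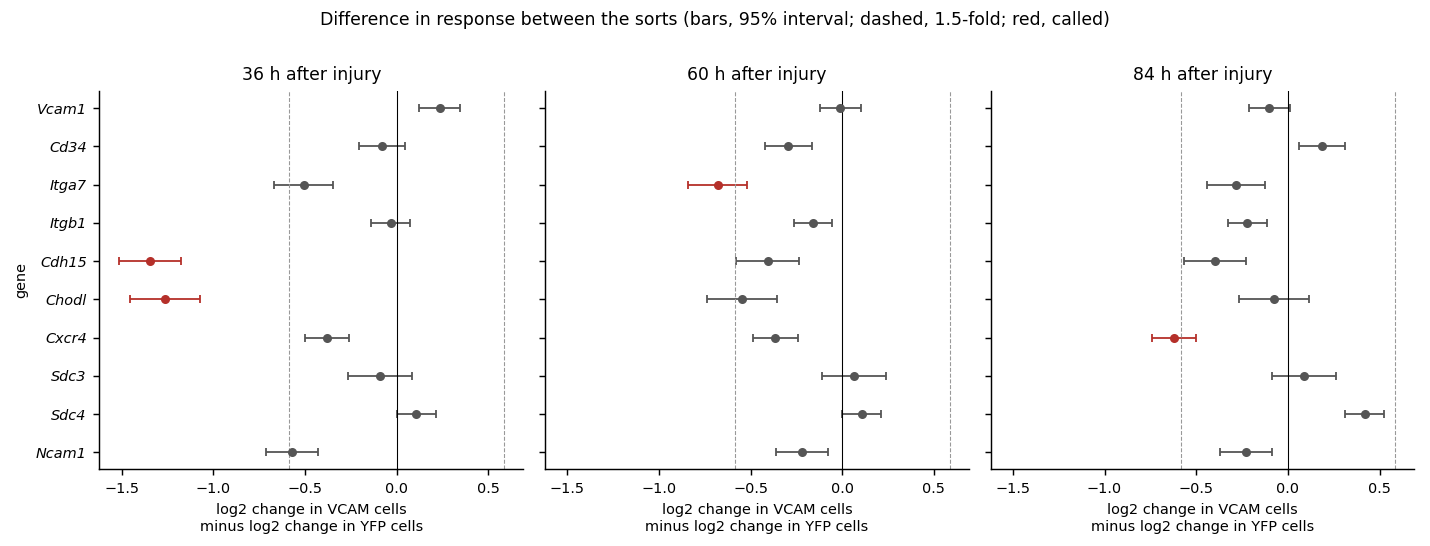
Difference between the sorts in the log2 change from QSCs (horizontal axis, VCAM minus YFP) at 36, 60 and 84 hr, with points for the estimate, bars for its 95% interval, dashed lines at 1.5-fold and red for called genes. Cdh15 and Chodl lie at -1.35 and -1.26 at 36 hr, and a single gene is red at 60 hr (Itga7) and at 84 hr (Cxcr4).

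The last question was what age does to these genes. In old QSCs Itga7 and Chodl were lower than in young QSCs, and at 60 hr after injury Chodl and Cd34 were higher in old than in young cells. In these bulk values the change from quiescence to 60 hr was smaller with age for Chodl, Cd34 and Cxcr4 and larger for Itga7. Of the 10 genes none rose and 2 fell with age in QSCs (3.04% and 4.70% of all genes), and 2 rose and none fell at 60 hr (4.75% and 0.657%). Between old QSCs and old 60 hr ASCs 2 rose, Itga7 and Sdc3, and 2 fell, Chodl and Sdc4 (17.8% and 11.7% of all genes). The rise of Sdc3, 0.63, was 0.37 and not called after quantile normalization, and 0.58 without old QSC array 3 or old 60 hr array 2. Ncam1, at -0.58, lay just under the fold and was called with arrays centred (-0.59), after quantile normalization (-0.74) and without old QSC array 1 or 2 or old 60 hr array 3 (-0.59 to -0.60). Cdh15, at -0.51, was called after quantile normalization (-0.69), which thus gave 1 gene higher and 4 lower.

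Itga7 read 10.47, 10.64 and 10.49 in old QSCs against 11.45, 11.45 and 11.52 in young ones, and 11.83, 11.79 and 11.85 against 11.93, 11.97 and 12.07 at 60 hr. Old arrays are lower at both times, by a wide margin in QSCs and a narrow one at 60 hr. The difference in QSCs was 1.92-fold (log2 difference -0.94, SE 0.06, adjusted p = 3.2e-13) and at 60 hr -0.17 (95% interval -0.28 to -0.05). Its partner Itgb1 was also lower in old QSCs, by -0.37 (SE 0.04, adjusted p = 3.9e-09), without reaching the fold. Among markers, 5 of 7 pericyte genes were lower in old QSCs (array means of 9.77 to 9.80 against 10.41 to 10.51) and 3 of 4 tenocyte genes higher (9.87 to 9.90 against at most 9.0), with none the other way. Of 6 myogenic identity genes 1 was lower (9.98 to 10.05 against 10.34 to 10.42), and of 7 fibroblast genes 3 were higher and 3 lower. Their part in the lower Itga7 and Chodl of old QSCs was not tested.

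Chodl read 12.43, 12.35 and 12.19 in old QSCs and 9.42, 9.44 and 9.52 in old cells at 60 hr, against 7.49, 7.67 and 7.77 in young cells at that time. Old arrays were below the young in QSCs and above them at 60 hr, with no overlap. The differences were -0.70 in QSCs (SE 0.07, adjusted p = 1.9e-09) and 1.81 at 60 hr, or 3.52-fold (SE 0.07, adjusted p = 1.2e-17). Cd34 followed the same order, with 11.63, 11.57 and 11.62 in old QSCs and 11.33, 11.40 and 11.41 at 60 hr. It was 0.38 lower in old QSCs, under the fold, and 2.21-fold higher in old cells at 60 hr (1.14, SE 0.04, adjusted p = 3.0e-17). From quiescence to 60 hr it changed by -0.23 in old cells (95% interval -0.31 to -0.14) and by -1.75 in young cells.

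The test of the difference between the responses called 4 of the 10 genes, all with a positive sign, where 6.81% of all genes were positive and 2.16% negative. Chodl differed by 2.51 (SE 0.09, adjusted p = 1.2e-16), Cd34 by 1.52 (SE 0.06, adjusted p = 6.1e-16), Cxcr4 by 0.89 (SE 0.06, adjusted p = 5.5e-12) and Itga7 by 0.77 (SE 0.08, adjusted p = 1.3e-08). For Cxcr4, old QSCs read 12.28, 12.27 and 12.15 and old 60 hr cells 11.77, 11.82 and 11.83, so its step was -0.42 in old cells against -1.32 in young cells. Its group means in old and young cells were 12.23 and 12.73 as QSCs and 11.81 and 11.41 at 60 hr. Neither of these age differences was called. Sdc4 fell in old cells as in young ones, 1.93-fold and 2.14-fold, with a difference between responses of 0.15 (95% interval 0.05 to 0.26). Cdh15 changed by -0.51 and -0.57 and Vcam1 by -0.46 and -0.56, and the intervals of their differences, -0.10 to 0.24 and -0.02 to 0.21, include 0.

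Among the wider lists, 8 of the 16 other integrin subunits were higher and 2 lower in old cells at 60 hr (list median 0.58, all genes -0.05), Itga1 by 1.48 and Itgb5 by 1.13. The calcitonin receptor Calcr, the only other SC surface gene of 13 called at 60 hr, was 1.00 higher in old cells, after being 0.83 lower in old QSCs. Markers of other cells moved at the same time. At 60 hr 15 of 16 macrophage genes, 8 of 12 endothelial genes, 4 of 7 fibroblast genes and 4 of 7 pericyte genes were higher in old cells and none lower. Array means lay between 9.30 and 9.37 against 7.65 and 7.73 for macrophage genes, 7.91 and 7.93 against 7.06 and 7.09 for endothelial genes, 11.51 and 11.52 against 10.57 and 10.69 for fibroblast genes, and 8.71 and 8.76 against 8.02 and 8.07 for pericyte genes. Those of 4 tenocyte genes lay between 10.49 and 10.54 against 9.77 and 9.88. Those of 7 lymphocyte genes lay between 5.20 and 5.26 against 5.26 and 5.32, and none was called. Pecam1 and Ptprc, which the gate excludes as proteins, were 1.35 and 1.66 higher in old cells at 60 hr. The part of these markers in the 60 hr values of Chodl, Cd34, Cxcr4 and Itga7, and in their response differences, was not tested.

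**Figure D4:**
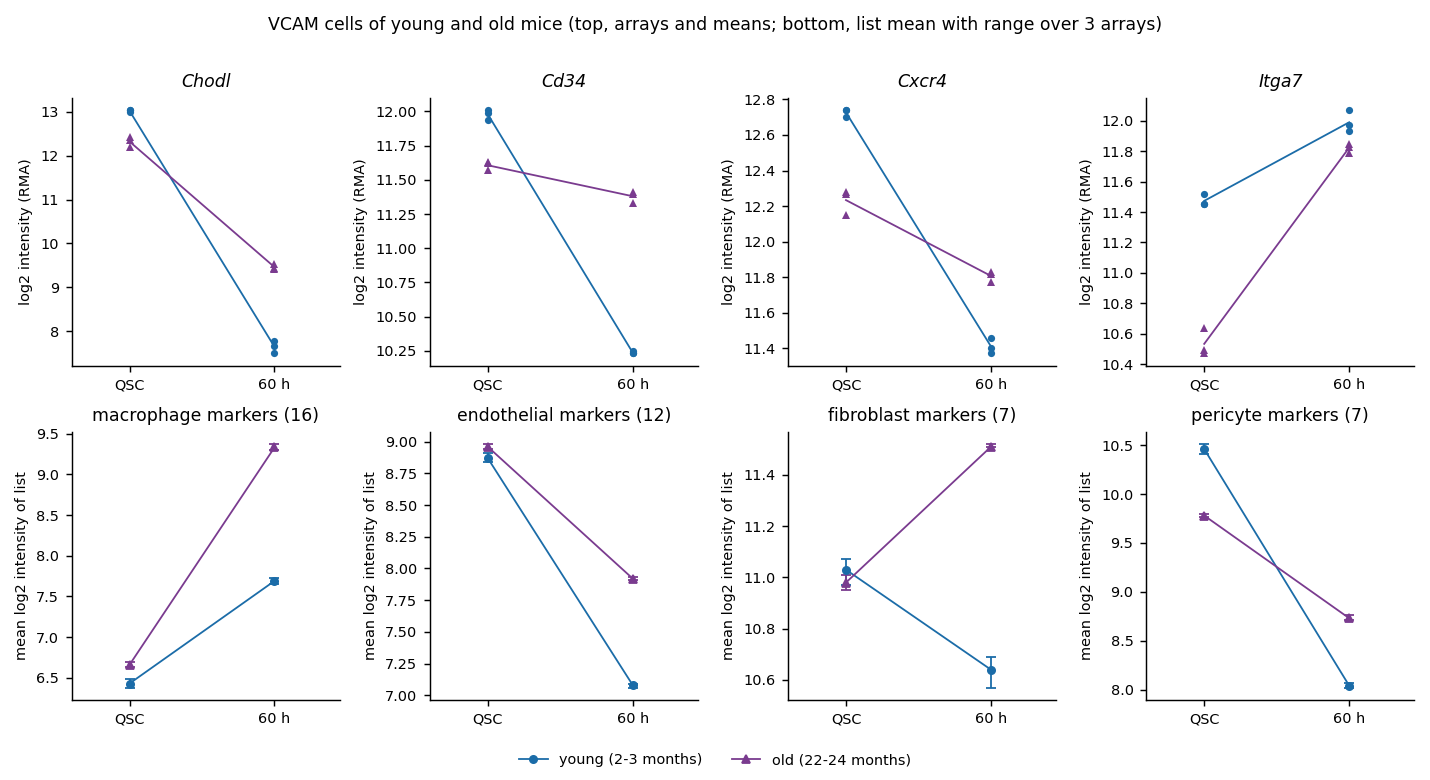
Log2 intensity of Chodl, Cd34, Cxcr4 and Itga7 on each array (top row) and the mean log2 intensity of 4 lists of other cell types (bottom row, bars from the lowest to the highest of 3 arrays) in VCAM QSCs and 60 hr ASCs of young (blue circles) and old mice (purple triangles). At 60 hr the old points lie above the young for Chodl (9.42 to 9.52 against 7.49 to 7.77) and Cd34 (11.33 to 11.41 against 10.23 to 10.25), and for all 4 lists. They also lie above for Cxcr4 (11.77 to 11.83 against 11.37 to 11.46) and below for Itga7 (11.79 to 11.85 against 11.93 to 12.07).

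The genes whose pattern over the 30 arrays came closest to each of the 10 were ranked by Pearson's r among 6062 genes whose group means span at least 1 log2 unit. The arrays of a group and the shared time course make such values high, so they describe likeness only. Chodl was closest to Pde3a, Dpt and Abca8a (r = 0.994, 0.994 and 0.992), of which Dpt is also in the fibroblast list. Sdc4 was closest to Slc38a2, Bmp4 and Slc5a3 (0.987, 0.985 and 0.981), Cd34 to Insig1, Pdpn and Dlc1 (0.983, 0.974 and 0.957), and Itga7 to Adgre5, Klhdc10 and Ndufb5 (0.982, 0.978 and 0.975). For Vcam1 they were Clu, Tgoln1 and Gstt1 (0.966 to 0.957), for Cxcr4 Grcc10, Rgs2 and Gpcpd1 (0.962 to 0.955), and for Ncam1 Cd200, 2610008E11Rik and Dpy19l3 (0.959 to 0.939). Itgb1 had Atl3, Fam234a and Asah1 (0.952 to 0.903), Sdc3 Ptgs2, Ehd1 and Acod1 (0.939 to 0.932), and Cdh15 St3gal5, Alpk3 and Zfp568 (0.934 to 0.915). No gene appears in the closest 3 of more than 1 of the 10.

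Ordered by level, the 10 groups fall out differently for each gene. Chodl, Sdc4 and Cd34 had 2, 0 and 1 of 9 neighbouring pairs of groups with overlapping arrays, and for all 3 the highest group was QSCs and the lowest 60 or 84 hr ASCs of young mice. Itga7 ran the other way, from old QSCs at the bottom through YFP and VCAM QSCs to VCAM cells at 84 hr, with 2 overlapping pairs. Cdh15 and Ncam1 had 4 each, with VCAM cells at 36 hr lowest for both and 84 hr cells of a sort highest. Sdc3 had 7, its top 3 groups being old cells at 60 hr and both sorts at 36 hr, which overlap. Cxcr4, Vcam1 and Itgb1 had 3 each.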

How the data were processed

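RNA of sorted cells was labelled from 100 ng of total RNA and hybridised to Affymetrix Mouse Gene 1.0 ST arrays. As deposited by the authors, each value is on a log2 scale, after background correction, quantile normalization and probe summary by RMA in Affymetrix Expression Console. No version is named. There were 35556 probe sets, ranging from 2.99 to 15.11, and array medians were 7.03 to 7.16, so no scaling was added. Array intensities compress folds at the bright end, where several of the 10 genes lie. Of the probe sets 21789 carry 1 gene symbol in the platform annotation, 1621 several and 12146 none. Those with 1 symbol were used, the brightest for each gene, giving 19938 genes. No gene was removed for low values.

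A mean for each of the 10 groups was fitted to all 30 arrays with limma 3.58.1 (lmFit and eBayes, statmod 1.5.0, R 4.3.3), with 20 residual degrees of freedom. Adjusted p values are Benjamini-Hochberg over all genes of each of 21 comparisons, two-sided. Calls need an adjusted p under 0.05 and a fold of at least 1.5. The labels give no batch. The number of arrays limits the precision.

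The 10 genes, the gene lists and the fold threshold were chosen with earlier results of these data known. Genes named are the 10, up to 4 of each list with the largest called change, the sort exclusion genes and the 3 most alike to each gene. Genes that go beyond this rule, where a value is followed through times, sorts or a pathway, were chosen after their values were seen. Lists are described by counts and medians, without a set test. Some genes of the lists are not analysed here. Alternatives were other thresholds, array medians centred, quantile normalization, removal of genes under 6 in every group mean, the groups compared only, trend and robust variance, the replicate block and each array left out. Promoters are those of RefSeq on GRCm38.p6.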

Additional observations from a re-analysis of the deposited data

Results flagged for a closer look

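In 8 cases a change from quiescence differed between groups by a test of the difference itself (limma, adjusted p under 0.05 and at least 1.5-fold). Between sorts, the change in VCAM cells minus that in YFP cells was -1.35 for Cdh15 and -1.26 for Chodl at 36 hr, -0.68 for Itga7 at 60 hr and -0.62 for Cxcr4 at 84 hr. Behind these, Cdh15 changed by -1.52 in VCAM cells and -0.18 in YFP cells, Chodl by -2.77 and -1.50, Itga7 by 0.52 and 1.20, and Cxcr4 by -0.98 and -0.36. Between ages, the change to 60 hr in old cells minus that in young cells was 2.51 for Chodl, 1.52 for Cd34, 0.89 for Cxcr4 and 0.77 for Itga7. Behind these, Chodl changed by -2.87 in old and -5.38 in young cells, Cd34 by -0.23 and -1.75, Cxcr4 by -0.42 and -1.32, and Itga7 by 1.29 and 0.52.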

How the results depend on the processing

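Removal of dim genes, the fit to the groups compared only, trend and robust variance and the replicate block kept the direction and call of all 210 values (10 genes in 21 comparisons). With the replicate number as a block the count at 36 hr in VCAM cells was again 5, and no other count moved. Whether the numbers pair arrays could not be decided. Of 135 same-number pairs, 27 deviated together with r over 0.1, but different-number pairs over 0.1 were not counted for comparison. Mean r was 0.035 for same-number pairs and -0.018 for different-number pairs. Centred arrays kept 192 of 210 and quantile normalization 197 of 210, and leaving out an array kept 1468 of 1500. No gene of the 10 has a second probe set, so that alternative was not run.

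With no fold threshold the genes called were 9, 10 and 9 of 10 at VCAM 36 hr, VCAM 60 hr and YFP 84 hr against QSCs, 10 at YFP 36 hr, 10 and 9 from 36 to 60 hr in VCAM and YFP cells, and 8 from 60 to 84 hr in VCAM cells. Between sorts they were 5, 7, 6 and 6 in QSCs and at 36, 60 and 84 hr, and 6, 7 and 7 for the responses. By age they were 9 in QSCs, 9 at 60 hr, 10 within old cells and 8 for the response. Without that threshold 12.6% to 69.2% of all genes were called, depending on the comparison. The share of all genes at a fold of 2 is not given here. The counts at that fold therefore show only how the calls move with the threshold. At a fold of 2 the counts were 3 at VCAM 36 and 84 hr, 1 at YFP 36 hr, 2 and 1 for the VCAM steps to 60 and 84 hr, 2 for the YFP step to 84 hr, 0 between sorts at 36 and 84 hr and for their responses at 60 and 84 hr, 0 for age in QSCs, 2 within old cells and 2 for the response by age. With arrays centred no gene was called between sorts at 84 hr or for the response at 84 hr (0 in each). After quantile normalization 4 were called for the response at 36 hr, where Itga7 (-0.63) and Ncam1 (-0.69) passed. Leaving out arrays gave 0 to 1 between sorts at 84 hr and 1 to 2 for the response at 60 hr, where Chodl passed (-0.61) without VCAM 60 hr array 3. It also gave 2 to 3 for the response by sort at 36 hr and 3 to 5 within old cells. Against QSCs it gave 5 to 6 at VCAM 60 hr and at YFP 84 hr, and 4 to 5 for the YFP step to 84 hr.

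Among single genes, centring ended the calls of Itga7 at YFP 36 hr and Cxcr4 in the YFP step to 84 hr. It added Vcam1 at YFP 84 hr (-0.64) and Ncam1 at YFP 36 hr (-0.62). Calls of Itga7 were added at VCAM 60 hr (0.60) and in the YFP step to 60 hr (0.63). Cdh15 at VCAM 60 hr (-0.71) and Sdc4 in the VCAM step to 60 hr (-0.60) were called after quantile normalization. The sign turned for differences near 0 that were not called. After quantile normalization these were Vcam1 and Cd34 between QSCs of the sorts (0.0286 and 0.0421), Vcam1 by age in QSCs (-0.0042), Itgb1 at VCAM 84 hr (0.0039) and Cdh15 from 36 to 60 hr in YFP cells (-0.0589). With arrays centred they were the responses of Vcam1 by sort at 60 hr (0.077) and by age (-0.0024), of Itgb1 by sort at 36 hr (0.0308) and of Cdh15 by age (-0.0295), and also Itga7 in the YFP step to 84 hr (-0.0385), Itgb1 between sorts at 60 hr (0.0071), Cxcr4 and Sdc3 between QSCs of the sorts (-0.0247 and -0.0248) and Ncam1 at YFP 84 hr (-0.0301). Leaving out arrays gave ranges across 0 for Vcam1 (-0.0468 to 0.0042), Cd34 (-0.0249 to 0.0103) and Sdc3 (-0.0091 to 0.0713) between QSCs of the sorts, the response of Vcam1 at 60 hr (-0.044 to 0.0089), Vcam1 by age in QSCs (-0.0072 to 0.0357), Itga7 in the YFP step to 84 hr (-0.0164 to 0.0427), Itgb1 between sorts at 60 hr (-0.045 to 0.0033) and Cdh15 from 36 to 60 hr in YFP cells (-0.0306 to 0.0587). The cause was not tested in any of these.

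Between 36 and 60 hr in VCAM cells, centring shifted the all-gene median, 0.002 as deposited, to 0.113, so changes of single genes in that step read about as much higher. The share of called genes that were higher went from 42.5% to 59.0% in that step and from 81.5% to 64.5% in the next, from 62.3% to 51.4% at YFP 36 hr, from 50.4% to 60.7% and 68.0% to 57.3% in the YFP steps, and from 48.9% to 35.1% between QSCs of the sorts. For the responses by sort it went from 49.2% to 60.7%, 44.3% to 64.6% and 41.4% to 56.4%, and by age from 76.0% to 57.8% (64.9% after quantile normalization).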
